A study of Mus musculus with 62 samples.

Results

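A group of 9 genes that interferons induce in many mouse tissues was followed through male germ-cell development in culture and in the testis. They were taken by symbol from the deposited gene tables: Ifitm1, Ifitm2, Ifitm3, Gbp2, Gbp2b, Isg15, Bst2, Irf1 and Irf7, which are 9 of 35914 nuclear genes. The series holds 62 libraries in 31 groups of 2, made by 3′-end RNA sequencing (SC3-seq), which reads the end of each transcript, from 1 ng of RNA. The lines made up 12 groups: 3 germline stem cell-like lines with the prefix 16 (16_W1, 16_W2, 16_W4), 4 lines named S1 to S4, 4 lines named W1 to W4, and GSC1, a germline stem cell line from mice. Each line is 1 line with 2 libraries, and the labels give the 12 line groups the genotype Acr-EGFPTg/0; Actin-EGFPTg/0 and the strain 129/SvJcl x C57BL/6. The culture course held primordial germ cell-like (PGC-like) cells at d4 and d4c5, prospermatogonia-like cells at m0, m3, m5 and m7, and spermatogonia-like cells at m10, m12 and m14. These cells came from embryonic stem cells with the reporters Prdm1-mVenusTg/0, Dppa3-ECFPTg/0 and mvh(Ddx4)-RFPTg/0 on a B6C3(Cg) × C57BL/6 background. The m cells were sorted from reconstituted testes, in which the PGC-like cells were joined with testis somatic cells of E12.5 ICR embryos from which the host's germ cells had been removed. The germ cells in vivo were prospermatogonia, taken daily over the 5 embryonic days E14.5 to E18.5, and spermatogonia from the 5 postnatal days P0, P1, P3, P5 and P7, carrying Ddx4-RFPTg/0 with the strain label ICR x B6C3(Cg)B6F1(5N). Genotype and strain therefore differ between the lines, the culture course and the cells in vivo and cannot be told apart from the comparisons between them. The sources used here do not spell out W, S and 16.

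Interferons bind receptors on the cell surface and, through JAK kinases, activate STAT transcription factors. Type I interferon acts mainly through the interferon-stimulated response element (ISRE) in the promoters of its target genes, and interferon gamma mainly through the gamma-activated site (GAS). Irf1 and Irf7 are transcription factors of the response. The Ifitm genes encode small membrane proteins that hinder the entry of viruses, and mouse Ifitm3 (fragilis) and Ifitm1 are classic surface markers of primordial germ cells. Gbp2 and Gbp2b are guanylate-binding proteins, large GTPases that attack pathogens inside the cell. Bst2 (tetherin) holds budding viruses at the cell surface, and Isg15 is a ubiquitin-like protein that is joined to other proteins.

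The members lie in a few loci of the GRCm38 genome, all as protein-coding genes in the GENCODE M21 annotation. On chromosome 7, Ifitm2 (140954837 to 140955987, minus strand), Ifitm1 (140967221 to 140969825, plus strand) and Ifitm3 (141009586 to 141010770, minus strand) are neighbours, and Irf7 (141262706 to 141266481, minus strand) lies further along. On chromosome 3, Gbp2b (142594847 to 142619179) and Gbp2 (142620602 to 142638008) follow each other on the plus strand. Isg15 is on chromosome 4, Bst2 on chromosome 8 and Irf1 on chromosome 11. The promoter windows of RefSeq (GRCm38.p6), from 250 bases before the gene start to 50 after it, were found for 9 of 9 members. They were searched on both strands for the ISRE core, which is GAAA, then NN, then GAAA in a row, and the GAS core TTCNNNGAA. The windows of the genes the results turn on are shown 5′ to 3′ on the gene's strand, with capitals for the matches.
Ifitm1 (chr7:140967826-140968125, plus strand): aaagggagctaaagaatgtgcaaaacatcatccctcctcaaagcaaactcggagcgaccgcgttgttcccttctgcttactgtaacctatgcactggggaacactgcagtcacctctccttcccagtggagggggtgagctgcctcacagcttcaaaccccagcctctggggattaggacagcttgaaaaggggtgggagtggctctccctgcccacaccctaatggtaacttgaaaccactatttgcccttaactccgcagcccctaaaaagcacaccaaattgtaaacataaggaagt
Ifitm2 (chr7:140955912-140956211, minus strand): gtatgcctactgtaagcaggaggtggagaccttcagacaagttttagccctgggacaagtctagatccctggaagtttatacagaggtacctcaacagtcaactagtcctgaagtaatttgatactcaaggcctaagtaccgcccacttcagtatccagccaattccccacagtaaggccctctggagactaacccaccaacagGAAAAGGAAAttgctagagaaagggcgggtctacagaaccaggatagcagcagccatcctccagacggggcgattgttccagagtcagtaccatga
Ifitm3 (chr7:141010695-141010994, minus strand): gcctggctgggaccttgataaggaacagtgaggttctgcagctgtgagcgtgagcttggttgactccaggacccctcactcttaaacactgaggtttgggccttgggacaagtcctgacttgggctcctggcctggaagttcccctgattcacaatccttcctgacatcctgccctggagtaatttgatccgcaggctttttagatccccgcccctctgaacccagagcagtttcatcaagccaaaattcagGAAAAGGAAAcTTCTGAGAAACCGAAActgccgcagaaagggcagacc
Gbp2 (chr3:142620413-142620712, plus strand): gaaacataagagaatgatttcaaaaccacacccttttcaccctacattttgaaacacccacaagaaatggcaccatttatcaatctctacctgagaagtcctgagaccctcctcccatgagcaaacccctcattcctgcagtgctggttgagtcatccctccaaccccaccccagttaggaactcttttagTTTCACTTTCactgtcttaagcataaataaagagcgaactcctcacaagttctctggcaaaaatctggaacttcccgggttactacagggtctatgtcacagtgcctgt
Gbp2b (chr3:142594597-142594896, plus strand): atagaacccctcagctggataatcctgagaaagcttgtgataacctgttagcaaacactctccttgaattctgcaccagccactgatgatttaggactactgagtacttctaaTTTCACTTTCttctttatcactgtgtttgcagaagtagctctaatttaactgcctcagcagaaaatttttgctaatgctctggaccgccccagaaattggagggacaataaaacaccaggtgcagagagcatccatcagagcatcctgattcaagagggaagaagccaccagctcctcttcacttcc
Irf1 (chr11:53769764-53770063, plus strand): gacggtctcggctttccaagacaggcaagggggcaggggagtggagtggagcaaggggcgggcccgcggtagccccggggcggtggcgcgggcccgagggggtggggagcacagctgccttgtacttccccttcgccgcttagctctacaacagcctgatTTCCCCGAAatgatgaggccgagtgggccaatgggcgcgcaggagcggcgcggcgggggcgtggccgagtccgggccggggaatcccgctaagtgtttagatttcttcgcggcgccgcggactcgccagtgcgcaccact
The ISRE core was in 6 of the 9 windows, against 3.49% of 27025 RefSeq promoter windows of the same length, and the GAS core in 3 of the 9, against 8.47%. With the first base of the gene counted as 0, the ISRE matches began at -46 in Ifitm2, at 2 and 19 in Ifitm3, at -59 in Gbp2, at -137 in Gbp2b, at -78, -72 and -66 in Isg15, and at -130 and -124 in Bst2. The GAS matches began at 13 in Ifitm3, at -136 in Bst2 and at -90 in Irf1. The matches in Isg15 overlap each other, as do those in Bst2, and the GAS match of Ifitm3 overlaps its second ISRE match. Neither core was in the windows of Ifitm1 and Irf7. The RefSeq start of Ifitm1 lies inside the GENCODE gene, downstream of its first base. Neighbours on the same chromosome thus differed in these letters: the Ifitm1 window held neither core, whereas the windows of Ifitm2 and Ifitm3 held the ISRE core.

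**Figure D1:**
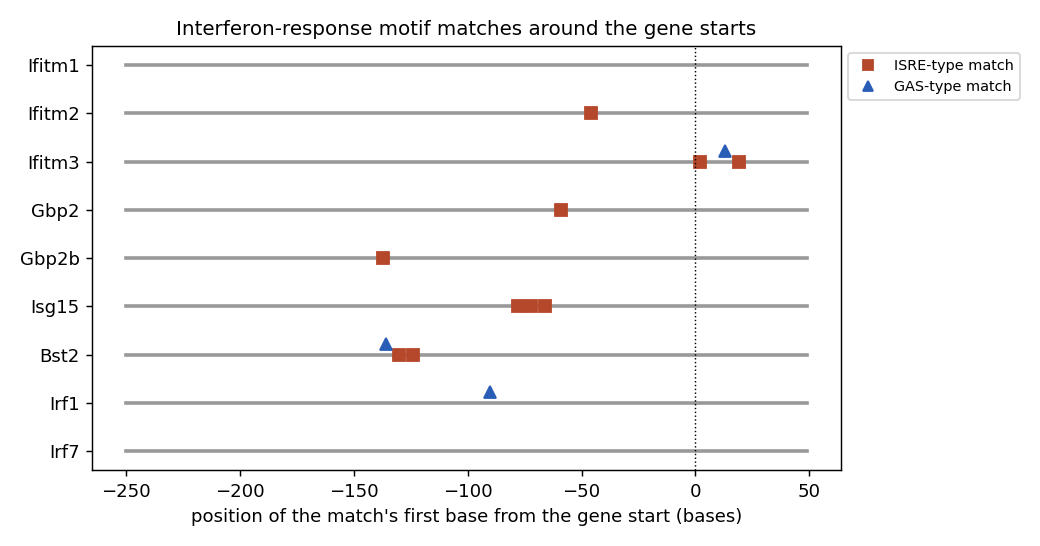
Positions of ISRE-type and GAS-type matches (x axis, bases from the first base of the gene, dotted line at 0) in the 300-base promoter window of each of the 9 genes (rows). Ifitm1 and Irf7 have no marker, and the markers of Ifitm3 lie after the gene start.

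Libraries held 1404261 to 4485280 reads on nuclear genes, so that a count of 3 reads, taken as the detection floor, corresponds to 0.669 to 2.14 RPM (reads scaled to the library total). Levels are given as CPM, which are counts scaled to the library total after TMM, and since each transcript is counted at its end, levels are compared within a gene across groups and not between genes. A gene was said to have risen or fallen where edgeR's quasi-likelihood test gave an adjusted p (Benjamini-Hochberg) under 0.05 over all genes tested and a fitted change of at least 2-fold. Of the 9 members, 7 passed the filter on low values, 5 RPM in at least 2 libraries, and Isg15 and Irf7 did not. In these bulk samples, fewer cells of a type and less RNA per cell cannot be told apart. The labels were checked on marker sums. The 9 germ cell markers summed to 3022 to 5859 CPM in the lines and in prospermatogonia, whereas in PGC-like cells they summed to 128 to 202 CPM, with Nanos2 at 0, beside 2916 to 3188 CPM for 9 primordial germ cell markers. The early prospermatogonia-like cells lay between. Their germ cell markers summed to 688 and 768 CPM at m0 and 1493 and 2282 CPM at m3. Primordial germ cell markers there summed to 2948 and 3154 CPM at m0 and 2707 and 2564 CPM at m3, near PGC-like cells. Sums for 14 macrophage markers reached 150 to 1488 CPM in spermatogonia-like cells, against 22.1 to 93.0 CPM in spermatogonia.

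In culture, the 3 Ifitm genes were at their highest in PGC-like cells and early prospermatogonia-like cells and were much lower by m7. Ifitm3 was already lower at m3 than at m0, whereas the libraries of m0 and m3 overlapped for Ifitm1 and Ifitm2. Ifitm1 measured 1146 and 1551 CPM at d4, 1447 and 1582 at d4c5, 1861 and 1392 at m0, 1401 and 803 at m3, 590 and 214 at m5, 23.2 and 23.8 at m7, 14.2 and 8.48 at m10, 2.31 and 2.55 at m12, and 5.60 and 11.1 at m14. Ifitm2 measured 340 and 543 CPM at d4, 452 and 464 at d4c5, 576 and 444 at m0, 477 and 379 at m3, 259 and 189 at m5, 38.8 and 33.5 at m7, and between 20.2 and 27.8 CPM in the 6 later libraries. Ifitm3, the gene known as fragilis, measured 655 and 979 CPM at d4, 928 and 1154 at d4c5, 832 and 810 at m0, 444 and 426 at m3, 194 and 87.3 at m5, 11.9 and 18.7 at m7, and 2.83 to 11.6 CPM in the later libraries. Between group means, m7 was lower than m3 by 46.9-fold for Ifitm1, 11.8-fold for Ifitm2 and 28.5-fold for Ifitm3. The 14 macrophage markers summed to 5.98 to 10.7 CPM in the 4 PGC-like libraries, with 4 of the 14 at 0 (C1qa, C1qc, Ptprc and Adgre1). Stromal markers summed to 793 to 1081 CPM there and endothelial markers to 83.4 to 147.6 CPM. Ifitm1 was at 1146 CPM or more in each of these libraries. The part of other cells in these levels was not tested.

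The steps between neighbouring time points place the change. At m5 against m3, Ifitm1 and Ifitm3 fell (log2 fold change -1.46, SE 0.36, adjusted p = 0.00302, and -1.65, SE 0.29, adjusted p = 4.02e-05), 2 of 7 members where 4.44% of all genes fell. The call of Ifitm1 is lost without m3 replicate 1 or m5 replicate 2. Ifitm2 changed by -0.94 in that step (SE 0.22, adjusted p = 0.000845), which is under 2-fold. At m7 against m5, Ifitm1, Ifitm2, Ifitm3 and Irf1 fell, with log2 fold changes of -4.08, -2.62, -3.18 and -1.33, which makes 4 of 7 members where 3.67% of all genes fell. The call of Irf1 is lost without m5 replicate 1. At m10 against m7, Irf1 rose by 1.22 (adjusted p = 0.000279), the single member called in a step where 4.1% of all genes rose, and the call is lost without m10 replicate 1. No member was called in the 5 other steps in culture, although Ifitm3 changed by -0.92 at m3 against m0 (SE 0.27, adjusted p = 0.0265), under 2-fold. Of all genes, 4.54% were called at d4c5 against d4, 2.53% at m0 against d4c5, 5.75% at m3 against m0, 4.77% at m12 against m10 and 0.0625% at m14 against m12, in which 0 to 1 of the 7 members had an unadjusted p under 0.05. DESeq2 and limma called 1 member in those steps, Ifitm1, lower at m12 than at m10.

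Over whole stages, 3 of 7 members fell in prospermatogonia-like cells against PGC-like cells, where 6.58% of all genes fell, and 1 rose, where 15.8% of all genes rose. Ifitm1 averaged 788 ± 700 CPM in prospermatogonia-like cells (SD, n = 8 libraries) and 1432 ± 199 CPM in PGC-like cells (n = 4). Its libraries at m0 and m3, with 803 to 1861 CPM, overlapped the PGC-like libraries, and those at m5 and m7 lay below them. Without m0 and m3 the log2 fold changes were -4.06 for Ifitm1, -2.50 for Ifitm2 and -4.50 for Ifitm3, against -1.99, -1.13 and -2.47 with them, and Irf1 was called lower as well (-1.04, adjusted p = 6.56e-08). With time points as units the calls of Ifitm1 (adjusted p = 0.643), Ifitm2 and Ifitm3 (adjusted p = 0.289) are lost. The riser was Gbp2, at 26 reads over 8 prospermatogonia-like libraries and no read in the 4 PGC-like libraries, which makes it at least 3.49-fold higher against the floor of 3 reads over the group. Its call is lost without m7 replicate 2. Among the markers, 6 of 6 tested Sertoli, 5 of 10 stromal and 8 of 9 germ cell markers were called higher in prospermatogonia-like cells. There 8 of 9 primordial germ cell markers were called lower. Sertoli sums were 109.6 to 340 CPM in prospermatogonia-like cells and 3.99 to 8.68 CPM in PGC-like cells. The part of the cells with these markers in the differences was not tested. In spermatogonia-like against prospermatogonia-like cells, Ifitm1, Ifitm2 and Ifitm3 fell, 3 of 7 members where 5.27% of all genes fell, and no member rose, where 13% rose. Ifitm1 averaged 7.37 ± 4.76 CPM in spermatogonia-like cells (n = 6) and 788 CPM in prospermatogonia-like cells, a log2 fold change of -5.86 (SE 0.35, adjusted p = 3.99e-15). Ifitm3 averaged 6.94 ± 3.46 CPM in spermatogonia-like cells and 353 ± 333 CPM in prospermatogonia-like cells (log2 fold change -4.57, SE 0.28, adjusted p = 1.4e-16). The corresponding change of Ifitm2 was -3.14 (SE 0.16, adjusted p = 3.33e-24), and its call is lost with time points as units (adjusted p = 0.073). Without m0 and m3 the 3 genes still fell, with changes of -3.96 for Ifitm1, -1.94 for Ifitm2 and -2.71 for Ifitm3. The fitted change averages the log levels of the time points and so differs from the ratio of the means. Bst2 measured 17.9 ± 2.29 CPM in spermatogonia-like cells and 29.6 ± 10.8 CPM in prospermatogonia-like cells, a change of -0.68 that is under 2-fold (adjusted p = 0.000756). Scaling by total reads in place of TMM moves the median of all genes in this comparison up by 0.233 on the log2 scale. Risers made up 83.0% of the called genes with that scaling and 71.1% with TMM. In the same step 9 of 9 primordial germ cell markers were called lower, with a median of -2.49, and their sum was 2707 and 2564 CPM at m3, 1888 and 1170 CPM at m5, and 254 and 250.1 CPM at m7. The 14 macrophage markers were all called higher, with sums of 150 and 156 CPM at m7 and 150 to 1488 CPM from m10 on, against 3.53 to 25.5 CPM from m0 to m5.

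In vivo the Ifitm genes fell between E14.5 and E16.5. Ifitm1 measured 475 and 419 CPM at E14.5, 82.2 and 94.0 at E15.5, 5.62 and 6.91 at E16.5, and stayed between 1.47 and 22.3 CPM in the 14 later libraries. Ifitm2 measured 257 and 262 CPM at E14.5, 149 and 137 at E15.5, 11.2 and 23.7 at E16.5, and 2.47 to 11.3 CPM afterwards. Ifitm3 measured 70.8 and 46.3 CPM at E14.5, 22.4 and 26.1 at E15.5, 9.23 and 6.91 at E16.5, 4.56 and 4.32 at E17.5, 3.78 and 2.72 at E18.5, and 0 to 1.51 CPM in the 10 libraries of spermatogonia. Between group means, E16.5 was lower than E14.5 by 71.3-fold for Ifitm1, 14.9-fold for Ifitm2 and 7.25-fold for Ifitm3. At E15.5 against E14.5, 2 of 7 members fell, Ifitm1 by 2.34 and Ifitm3 by 1.26 on the log2 scale, where 2.72% of all genes fell. The call of Ifitm3 is lost without 3 of the 4 libraries in turn. At E16.5 against E15.5, 3 of 7 members fell, where 4.43% of all genes fell: Ifitm1 by 3.80, Ifitm2 by 3.00 and Ifitm3 by 1.61. That of Ifitm3 is lost without the second library of either day. Gbp2b rose in that step, where 9.61% of all genes rose, with 13 reads at E16.5 (0.402 and 3.95 CPM) and none at E15.5. That call is lost without either library of E15.5 and without the second of E16.5.

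In later steps in vivo, Ifitm3 and Bst2 fell at P0 against E18.5, 2 of 7 members where 5.07% of all genes fell, Ifitm3 with 1 read at P0 and 24 at E18.5. The call of Ifitm3 is lost without any 1 of the 4 libraries, and that of Bst2 without 3 of the 4 in turn. Ifitm2 rose at P1 against P0 (11.05 and 9.83 CPM at P1, 2.47 and 5.16 at P0), where 6.15% of all genes rose, a call that is lost without 3 of the 4 libraries in turn. At P3 against P1, Ifitm1 fell by 3.24 and Ifitm2 by 1.21 on the log2 scale, 2 of 7 where 17.9% of all genes fell, and Irf1 rose by 1.19, where 6.96% rose. The call of Ifitm2 is lost without any 1 of the 4 libraries, and that of Irf1 without P3 replicate 2 and in 4 of 9 other settings. The remaining 4 steps in vivo had no member called, where 0.131% of all genes were called at E17.5 against E16.5, 3.68% at E18.5 against E17.5, 3.78% at P5 against P3 and 2.65% at P7 against P5. In these steps 0 to 2 of the 7 members had an unadjusted p under 0.05, and DESeq2 and limma called 1 member there, Ifitm2, lower at P7 than at P5.

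**Figure D2:**
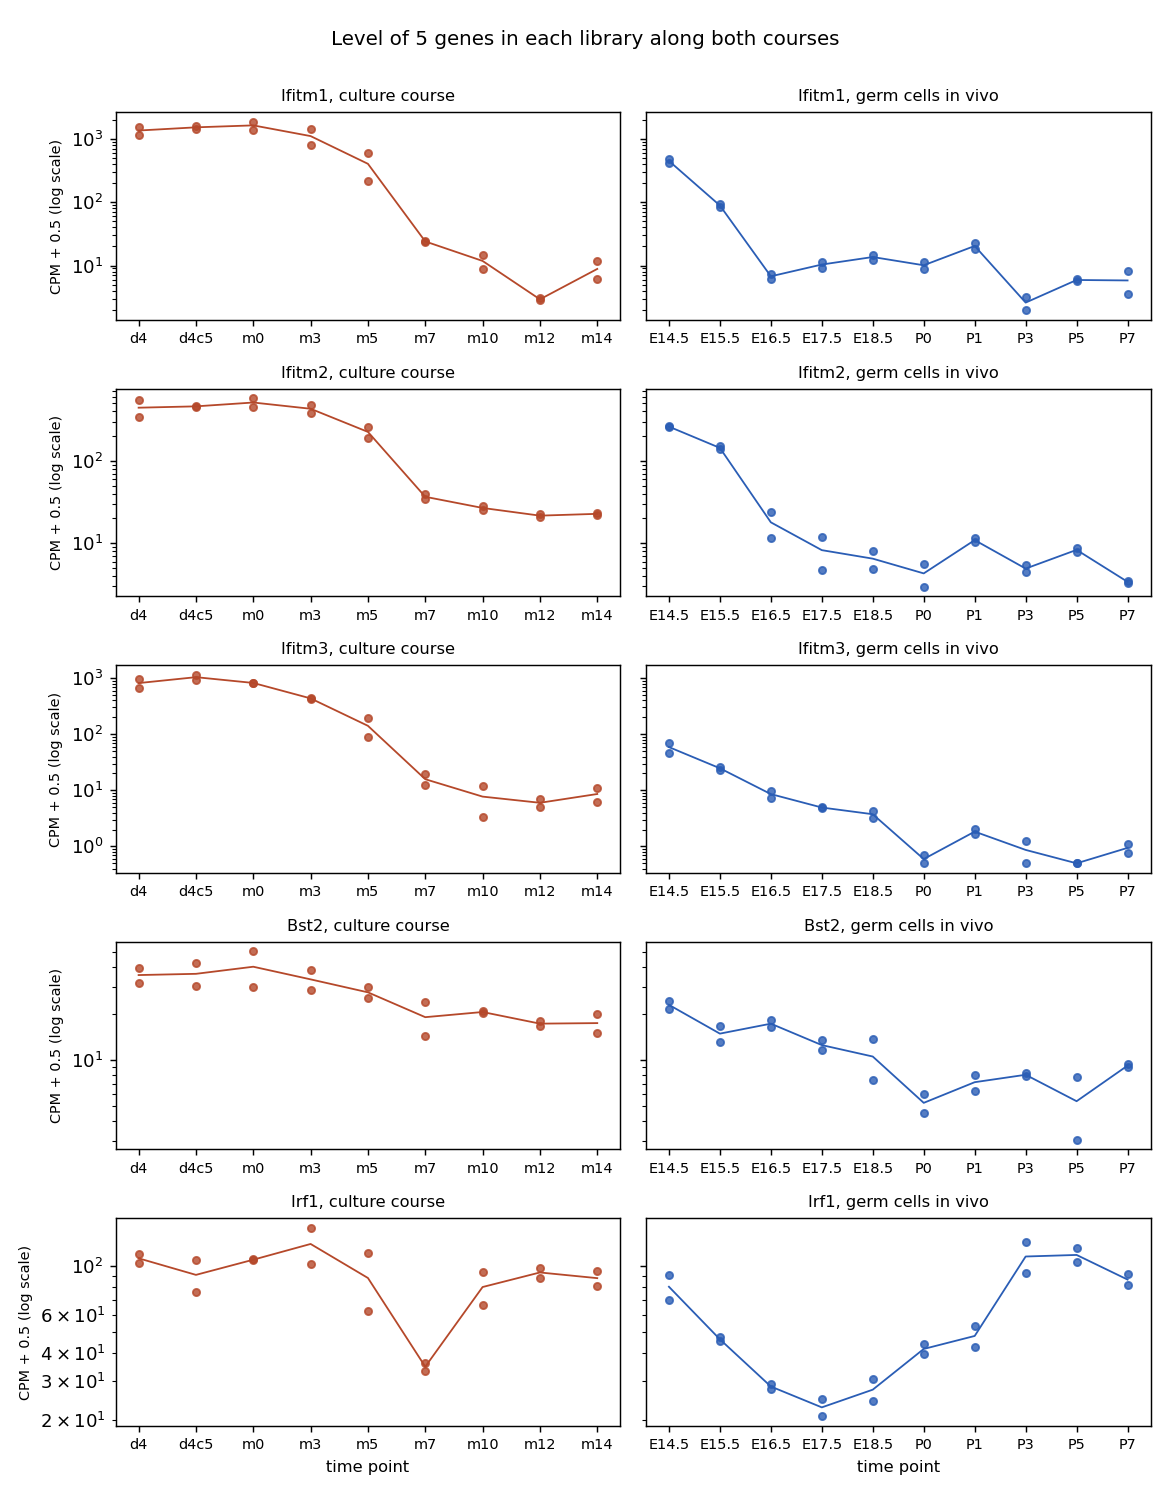
CPM plus 0.5 on a log axis in each library (points) with group means (lines) for Ifitm1, Ifitm2, Ifitm3, Bst2 and Irf1 along the culture course (left) and in vivo (right). Ifitm1 falls below 25 CPM by m7 in culture and below 7 CPM by E16.5 in vivo, and Irf1 dips at m7 and at E17.5.

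Irf1 followed another course, a dip and a return. In culture it measured 107 and 106 CPM at m0, 149 and 102 at m3, 114 and 61.6 at m5, 35.7 and 32.9 at m7, 93.6 and 65.6 at m10, 87.8 and 97.7 at m12, and 80.3 and 94.5 at m14. In vivo it measured 90.0 and 69.6 CPM at E14.5, 44.8 and 46.8 at E15.5, 26.9 and 28.6 at E16.5, 20.2 and 24.2 at E17.5, 29.9 and 23.8 at E18.5, 39.2 and 43.6 at P0, 42.4 and 52.5 at P1, 92.2 and 127 at P3, 120 and 103 at P5, and 81.0 and 91.2 at P7. The low points were m7 in culture and E17.5 in vivo, and the libraries of m7 lay below the other culture libraries. Bst2 was highest at m0, with 50.4 and 29.3 CPM, and lowest at P0, with 4.01 and 5.55 CPM.

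Between spermatogonia and prospermatogonia in vivo, 5 of 7 members fell, where 21.5% of all genes fell, and Irf1 rose, where 11.2% rose. Ifitm2 averaged 5.89 ± 3.07 CPM in spermatogonia and 86.9 ± 106 CPM in prospermatogonia (SD, n = 10 libraries each, log2 fold change -2.56, SE 0.18, adjusted p = 1.14e-18). Ifitm1 averaged 8.46 ± 6.73 CPM in spermatogonia and 113 ± 179 CPM in prospermatogonia (-2.29, SE 0.31, adjusted p = 9.31e-08). Ifitm3 had 13 reads in all 10 libraries of spermatogonia and 549 in those of prospermatogonia, 0.448 ± 0.542 against 19.7 ± 22.7 CPM, a 44.0-fold difference of means with no overlap of libraries. Its fitted log2 fold change of -5.24 depends on how P5, with no read, is treated. Bst2 averaged 6.52 ± 2.03 CPM in spermatogonia and 15.1 ± 4.88 CPM in prospermatogonia (-1.19, adjusted p = 8.92e-10). Gbp2 fell with 31 reads in spermatogonia, none of them at P1, and 51 in prospermatogonia, a ratio of means of 1.86. Its fitted log2 fold change was -1.74 (adjusted p = 0.00571), and the call is lost in 3 of 10 other settings, all of them limma. Irf1 averaged 79.3 ± 33.0 CPM in spermatogonia and 40.5 ± 23.0 CPM in prospermatogonia (1.02, adjusted p = 3.07e-14), a change so near 2-fold that it is lost in 3 of 11 other settings and without 5 of the 20 libraries in turn. Without E14.5 and E15.5, an alternative added after seeing the data, Ifitm1 gave -0.60 (adjusted p = 0.154) and Ifitm2 -0.90 (adjusted p = 0.000385) and neither was called, whereas Ifitm3 gave -4.13, Bst2 -1.07, Gbp2 -1.67 and Irf1 1.45 and kept their calls. Gbp2b, not called with all time points, was then called lower (-4.59, adjusted p = 3.05e-08), a fitted value that depends on groups with no read. Markers of other cells also differed here: 5 of 5 tested blood markers, 4 of 4 Leydig markers, 5 of 9 endothelial and 6 of 10 stromal markers were called lower in spermatogonia, as were 5 of 9 primordial germ cell markers, whose sum was 2958 and 2422 CPM at E14.5 and 243 and 246 CPM at E16.5. The blood marker sum was 3.03 to 82.6 CPM in spermatogonia and 54.6 to 317 CPM in prospermatogonia, and the stromal sum 300 to 391 CPM in spermatogonia and 298 to 666 CPM in prospermatogonia. Their part in the difference was not tested.

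At the prospermatogonia stage the cultured cells held more Ifitm RNA than the cells in vivo. Prospermatogonia-like cells were higher than prospermatogonia in 4 of 7 members, where 12.1% of all genes were higher, and lower in none, where 26.3% were lower. The differences were 3.496 (SE 0.25) for Ifitm1, 2.69 (SE 0.13) for Ifitm2, 3.90 (SE 0.24) for Ifitm3 and 1.13 (SE 0.11) for Irf1 on the log2 scale, with adjusted p between 3.23e-25 and 9.14e-14. With time points as units the call of Ifitm2 is lost (adjusted p = 0.082). The libraries of the 2 stages overlapped for each of the 4 genes. The courses are not aligned in time: m5 held 590 and 214 CPM of Ifitm1, against 475 and 419 CPM at E14.5, and 194 and 87.3 CPM of Ifitm3 against 70.8 and 46.3 CPM. Without m0 and m3, whose primordial germ cell marker sums were near those of PGC-like cells, the differences were smaller. They were 1.55 for Ifitm1, 1.45 for Ifitm2 and 2.00 for Ifitm3, and that of Irf1 drops to 0.54 and is no longer called. Without E14.5 and E15.5, Ifitm1 differed by 5.23, Ifitm2 by 4.41 and Ifitm3 by 5.06, and Bst2 (1.15, adjusted p = 2.01e-08) was called higher and Gbp2b (-3.66, adjusted p = 0.000238) lower. In this comparison 7 of 9 primordial germ cell and 4 of 6 tested Sertoli markers were called higher in prospermatogonia-like cells, and 5 of 5 tested blood, 6 of 9 endothelial and 3 of 4 tested Leydig markers lower. The part of other cells in these differences was not tested either.

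Spermatogonia-like cells were higher than spermatogonia in 4 of 7 members, where 6.82% of all genes were higher, and lower in none, where 3.87% were lower. Ifitm2 averaged 23.3 ± 2.71 CPM in spermatogonia-like cells (n = 6) and 5.89 ± 3.07 CPM in spermatogonia (n = 10), and the libraries did not overlap (2.12, SE 0.20, adjusted p = 1.15e-12). Ifitm3 averaged 6.94 ± 3.46 CPM in spermatogonia-like cells against 0.448 ± 0.542 CPM in spermatogonia, a 15.49-fold ratio with no overlap. Bst2 averaged 17.9 ± 2.29 CPM in spermatogonia-like cells and 6.52 ± 2.03 CPM in spermatogonia, also with no overlap (1.48, SE 0.18, adjusted p = 2.17e-09). Gbp2 was called higher on 24 reads in spermatogonia-like cells and 31 in spermatogonia, at means of 2.00 and 0.917 CPM, and the call is lost without m10 replicate 2 or m14 replicate 1. Ifitm1 measured 7.37 CPM in spermatogonia-like cells and 8.46 CPM in spermatogonia, a difference of -0.07 (SE 0.50). With the time points as the units of the test, in which Gbp2 did not enter, Bst2 was called and Ifitm2 and Ifitm3 were not. In this comparison 13 of 14 macrophage markers, 9 of 10 stromal and 5 of 6 tested Sertoli markers were also called higher in spermatogonia-like cells. The libraries of m10 differed most in macrophage markers, with sums of 1488 and 150 CPM. In those same libraries Ifitm3 measured 11.6 and 2.83 CPM, Ifitm2 27.8 and 24.9 CPM, and Bst2 20.2 and 19.8 CPM. The part of other cells in these differences was not tested.

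The step from prospermatogonia to spermatogonia differed between culture and mouse in 2 of 7 members, where 26.3% of all genes differed. The share of the members was thus near that of all genes. The step of Ifitm1 was more negative in culture, by -3.57 (SE 0.53, adjusted p = 1.43e-06), -5.86 in culture against -2.29 in vivo. The step of Gbp2 was 0.34 in culture and -1.74 in vivo, a difference of 2.08 (SE 0.80, adjusted p = 0.0283) on low counts. That of Ifitm2 differed by -0.58 (SE 0.25, adjusted p = 0.0551) and that of Ifitm3 by 0.68 (SE 0.63, adjusted p = 0.409), which did not pass. With time points as units the call of Ifitm1 is lost (adjusted p = 0.49). Ifitm1 stayed called without m0 and m3, at -1.62 (adjusted p = 0.0465), and without E14.5 and E15.5, at -5.31, where Ifitm2 (-2.30) and Irf1 (-1.37) were called as well. Without m0 and m3, Ifitm3 was called too, with a step less negative in culture (2.58, adjusted p = 0.0219), and Gbp2 was not (1.75, adjusted p = 0.166). Gbp2 was also not called without any 1 of P1 replicate 2, m3 replicate 2, m10 replicate 2, m12 replicate 2 and m14 replicate 1.

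**Figure D3:**
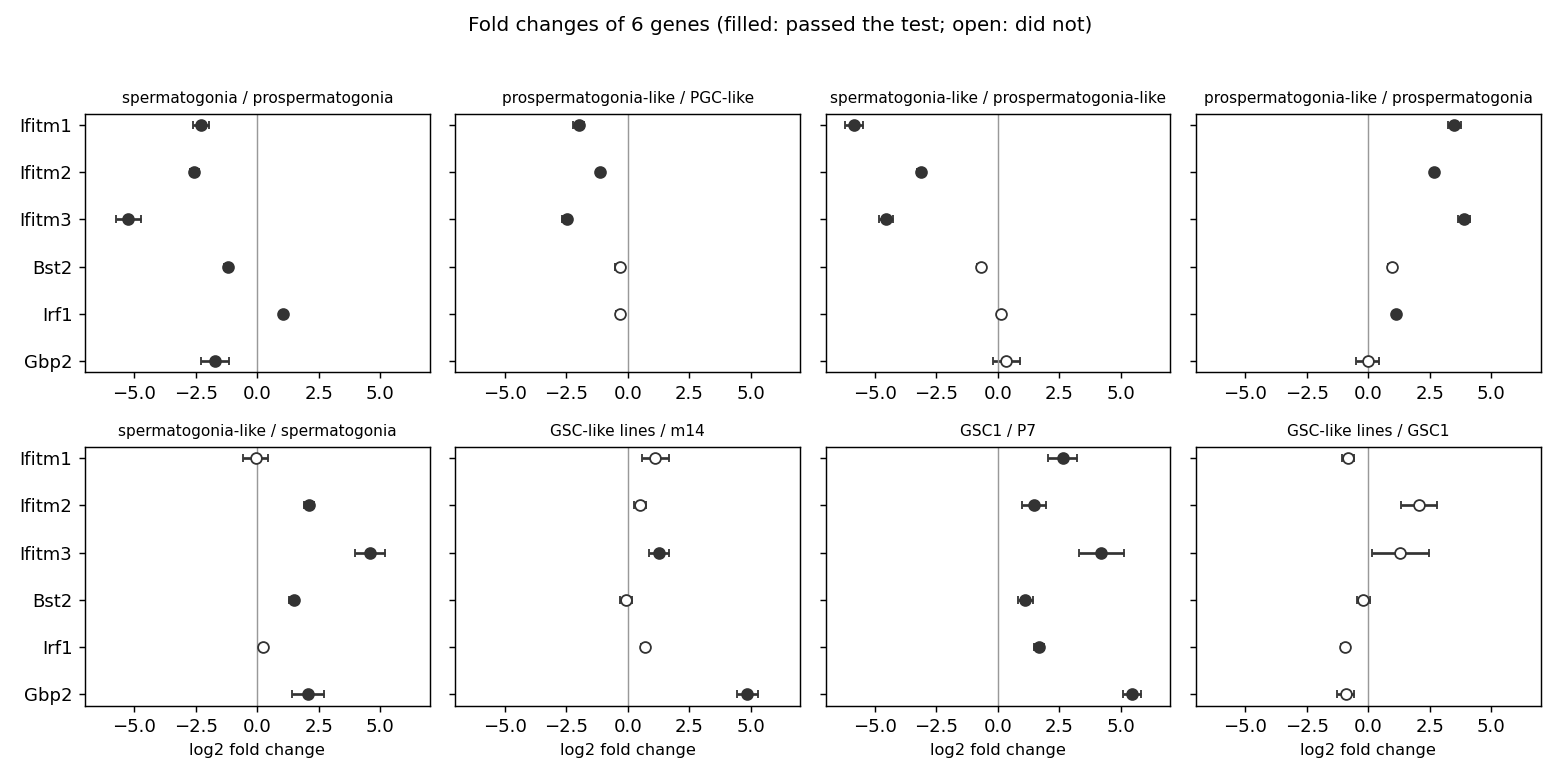
Fitted log2 fold changes (x axis, point, with SE bars) of 6 genes (rows) in 8 comparisons (panels, first-named group over second). Filled points passed the test, open points did not, and no point is drawn where a group held no read. The 3 Ifitm genes lie left of 0 in both steps and right of 0 in prospermatogonia-like cells against prospermatogonia.

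The guanylate-binding genes Gbp2 and Gbp2b were near the floor along both courses and were read in the stem cell lines. No library outside the lines reached 5 RPM of either gene, so both passed the filter through the lines alone. Gbp2 measured 88.7 and 81.6 CPM in GSC1 and 13.96 to 86.7 CPM in the 22 libraries of the GSC-like lines, whereas its highest library elsewhere, at m5, held 4.29 CPM. In 12 of 12 line groups it was thus above each of the other 19 groups without overlap. Gbp2b measured 45.5 and 57.7 CPM in GSC1 and 18.3 to 37.3 CPM in 9 of the 11 GSC-like lines, against at most 3.95 CPM outside the lines. The lines 16_W2 and 16_W4 stood apart, with no read of Gbp2b in any of their 4 libraries.

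GSC1 was higher than P7 spermatogonia in 7 of 7 members tested, where 6.99% of all genes were higher. Gbp2 and Gbp2b passed the filter only through the lines, so the filter favoured their part of this count. Gbp2 measured 88.7 and 81.6 CPM in GSC1 against 1.40 and 2.42 CPM at P7 (log2 fold change 5.46, SE 0.37, adjusted p = 7.22e-19). Gbp2b had 369 reads in GSC1 and none at P7, at least 118-fold higher against the floor of 3 reads over the group. Irf1 measured 267 and 282 CPM in GSC1 and 81.0 and 91.2 CPM at P7 (1.67, SE 0.19, adjusted p = 2.72e-10). Ifitm1 measured 27.8 and 37.3 CPM in GSC1 and 3.07 and 7.57 CPM at P7 (2.63, SE 0.60, adjusted p = 0.0014), and Ifitm3 10.4 and 7.35 CPM in GSC1 and 0.279 and 0.606 CPM at P7 (4.21, SE 0.93, adjusted p = 0.000755), on 3 reads at P7. Ifitm2, at 8.40 and 7.62 CPM in GSC1 and 2.79 and 3.03 CPM at P7, lost its call without any 1 of the 4 libraries. Bst2 measured 18.55 and 19.1 CPM in GSC1 and 8.93 and 8.48 CPM at P7 (1.11, SE 0.30, adjusted p = 0.00481). GSC1 is 1 line, so its 2 libraries give no spread between lines.

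The GSC-like lines were higher than the m14 cells in 2 of 7 members, where 4.05% of all genes were higher, and lower in none, where 9.2% were lower. Of the 2, Gbp2 passed the filter only through the lines, so the filter favoured its call. The test took libraries and not lines as units, so its SE and p do not measure the spread between lines. Gbp2 averaged 46.4 ± 17.4 CPM over the lines (SD, n = 11 lines) and measured 1.87 and 0.964 CPM at m14 (4.87, SE 0.43, adjusted p = 1.7e-14). Ifitm3 averaged 23.0 ± 16.2 CPM over the lines and measured 5.60 and 10.6 CPM at m14 (1.28, SE 0.42, adjusted p = 0.0178), a call that is lost without m14 replicate 1. Gbp2b had 2 reads at m14 (0.467 and 0.482 CPM), against 18.3 to 37.3 CPM in 9 lines and no read in 2, and edgeR, whose fit averages log levels over these lines, gave no call, whereas DESeq2 and limma at each pseudocount called it higher. Irf1 averaged 143 ± 23.9 CPM in the lines and measured 80.3 and 94.5 CPM at m14, a difference of 0.69 (adjusted p = 0.000428) that is under 2-fold. In the lines 14 of 14 macrophage markers were called lower than at m14, with sums of 10.3 to 49.8 CPM in the lines and 851 and 1020 CPM at m14.

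**Figure D4:**
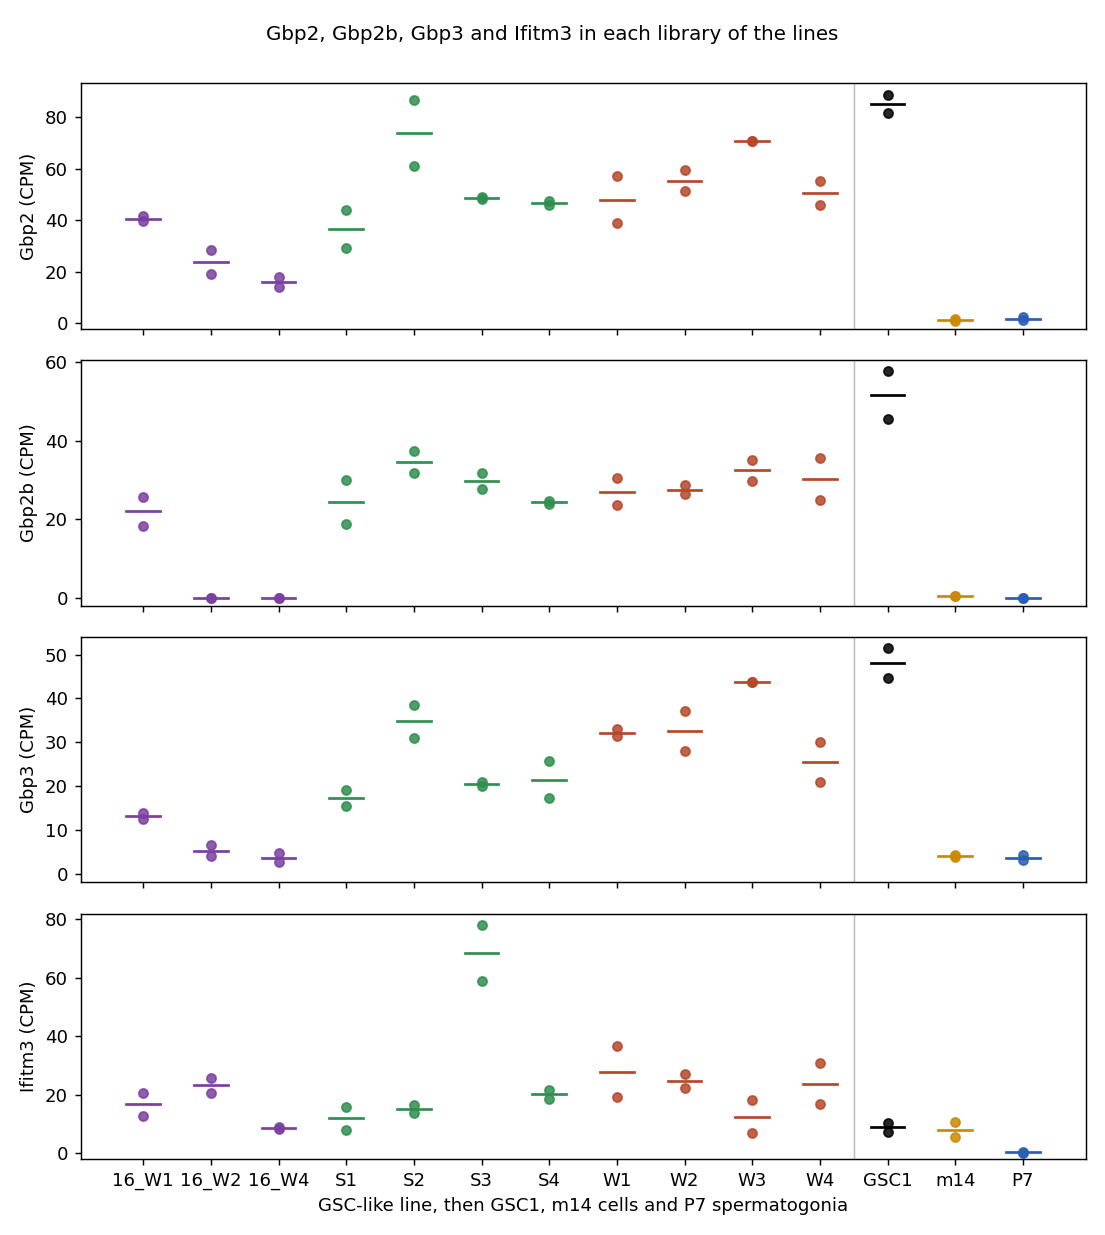
CPM of Gbp2, Gbp2b, Gbp3 and Ifitm3 (panels) in each library (points, with the group mean as a bar) of the GSC-like lines, GSC1, m14 cells and P7 spermatogonia. Gbp2b is at 0 in 16_W2 and 16_W4, and Ifitm3 is highest in S3.

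Among the lines no member passed the test in 3 comparisons. The GSC-like lines against GSC1 gave 0 of 7 members by edgeR, where 3.9% of 11458 genes were called, 4 of 7 with an unadjusted p under 0.05, and 1 by DESeq2. Irf1 averaged 143 ± 23.9 CPM in the lines and 274 CPM in GSC1, and every GSC-like library, with 190 CPM at most, lay below both GSC1 libraries (-0.94, SE 0.15, adjusted p = 0.00133, under 2-fold). Ifitm2 averaged 37.2 ± 18.7 CPM in the lines and 8.01 CPM in GSC1 (2.07, SE 0.73, adjusted p = 0.0957). The S lines against the W lines gave 0 of 7 by edgeR, where 1.57% of genes were called, with 2 at an unadjusted p under 0.05 and 0 by DESeq2. Gbp2 averaged 51.4 ± 15.9 CPM in the S lines and 56.2 ± 10.2 CPM in the W lines (SD, n = 4 lines each), and Gbp2b 28.2 ± 4.96 and 29.3 ± 2.54 CPM in the S and W lines. Ifitm3 in S3, at 58.8 and 78.0 CPM, stood above the other S lines, which held 8.08 to 21.7 CPM.

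The prefix-16 lines against the W lines gave 0 of 7 members by edgeR, where 2.96% of genes were called, 3 with an unadjusted p under 0.05, 2 by DESeq2 and 3 by limma at each pseudocount. Gbp2 averaged 26.8 ± 12.6 CPM in the prefix-16 lines (n = 3 lines) and 56.2 ± 10.2 CPM in the W lines (-1.02, SE 0.34, adjusted p = 0.0747). Ifitm2 averaged 15.0 ± 6.12 CPM in the prefix-16 lines and 41.8 ± 9.88 CPM in the W lines (-1.51, SE 0.46, adjusted p = 0.0587). Gbp2b measured 18.3 and 25.7 CPM in 16_W1 and had no read in 16_W2 and 16_W4, against 23.6 to 35.6 CPM in the W lines. The 16_W2 and 16_W4 libraries together lay at least 64.4-fold below 16_W1 against the floor of 3 reads over the group, as a description of lines singled out after their values were seen. Gbp2, the next gene on chromosome 3, measured 19.0 and 28.4 CPM in 16_W2, 13.96 and 18.2 CPM in 16_W4, and 39.5 and 41.7 CPM in 16_W1. Gbp3, which lies before Gbp2b on chromosome 3 (142560026 to 142573209), fell in the prefix-16 lines, with 7.31 CPM on average against 33.5 CPM in the W lines (-2.12, adjusted p = 0.00389). It measured 3.92 and 6.44 CPM in 16_W2, 4.65 and 2.60 CPM in 16_W4, and 12.4 and 13.9 CPM in 16_W1. Gbp7, the next gene before it, measured 2.24 and 5.15 CPM in 16_W2, 1.27 and 0.649 CPM in 16_W4, and 6.90 and 5.47 CPM in 16_W1, and its change of -0.56 did not pass (adjusted p = 0.352). Irf1 measured 128 and 131 CPM in 16_W2, 102 and 103 CPM in 16_W4, and 163 and 176 CPM in 16_W1.

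Isg15 and Irf7 were low throughout. Isg15 was highest at E14.5, with 12.6 and 3.89 CPM, followed by m5, with 4.59 and 4.29 CPM, and had no read in the 6 libraries of spermatogonia-like cells, which allows up to 0.249 CPM over the group. Irf7 did not exceed 3.40 CPM in any library, and its highest group mean was 2.79 CPM at E17.5. Ranked by group mean, neighbouring groups overlapped in 24 of 30 pairs for Ifitm1, 26 for Ifitm2, 21 for Ifitm3, 23 for Gbp2, 28 for Gbp2b, 29 for Isg15, 27 for Bst2, 23 for Irf1 and 30 for Irf7. For Ifitm1, the groups m0, d4c5, d4, m3, E14.5, m5 and E15.5, in that order of means, had libraries of at least 82.2 CPM, and the other 24 groups had at most 37.3 CPM. Ifitm2 had the same 7 groups on top, at 137 CPM or more, against at most 73.8 CPM elsewhere. For Irf1, GSC1 stood above the other 30 groups, which reached 190 CPM.

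Across the 31 groups, the log2 levels of Ifitm2 and Ifitm3 correlated with r = 0.93, those of Ifitm1 and Ifitm3 with 0.89, those of Ifitm1 and Ifitm2 with 0.87, and those of Gbp2 and Gbp2b with 0.88, whereas Ifitm1 and Gbp2 gave -0.24 and Ifitm1 and Irf1 0.11. These are descriptions over groups that share time courses and lines. By the same measure, the genes most like each member among those past the filter were Gtsf1l (0.93), Mup6 (0.92) and Etnk1 (0.91) for Ifitm1, Plp2 (0.93), Ifitm2 (0.93) and Tceal8 (0.90) for Ifitm3, Cavin1 (0.92), Dnaaf2 (0.92) and Rasl11a (0.92) for Gbp2, Gbp2 (0.88), Pou3f3 (0.84) and Tti2 (0.84) for Gbp2b, and Psme2 (0.95) and Sf3a1 (0.93) for Irf1. For Ifitm2 they were Ifitm3, Gm42048 (0.89) and Ifitm1, and for Bst2 they were Ifitm3 (0.87), Plp2 (0.84) and Gm42048 (0.82). Mup6 belongs to a family of near-identical genes, so its count is uncertain. In the last 400 bases of the transcripts, 25.4% of the 50-base windows of Ifitm2 and 12.3% of those of Ifitm3 occur in other annotated genes. The shared windows of Ifitm3 occur in Gm7676 and in Ifitm1, another member. The share was 1.99% for Ifitm1 and 0 for Gbp2, Gbp2b, Bst2, Irf1 and Irf7. Part of the Ifitm2 and Ifitm3 reads may thus be lost or shared, for Ifitm3 also with Ifitm1.

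Upstream in the pathway, none of 21 interferon ligand genes passed the filter. Of 6 interferon receptor genes, 2 rose and 0 fell in spermatogonia-like against prospermatogonia-like cells, where 13% of all genes rose, and 2 rose in GSC1 against P7, where 6.99% rose. Ifnar2, a chain of the type I receptor, averaged 36.4 CPM in GSC1 and 4.51 CPM at P7 (3.00, adjusted p = 2.85e-10). Among the JAK kinases, Jak1 averaged 173 CPM in prospermatogonia-like and 46.0 CPM in PGC-like cells, and Jak2 44.1 CPM in prospermatogonia-like and 9.497 CPM in PGC-like cells, and both rose. Socs3, an inhibitor of JAK signalling, averaged 59.8 CPM in GSC1 and 5.54 CPM at P7 (3.43, adjusted p = 1.21e-13).

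Among other interferon-stimulated genes, 9 of 33 tested (of 46 listed) rose in GSC1 against P7 and 0 fell, where 6.99% of all genes rose, with a median log2 fold change of 1.34 beside -0.08 over all genes. Parp9 averaged 45.1 CPM in GSC1 and 6.58 CPM at P7, Dtx3l 28.0 and 7.71 CPM, and Parp14 24.9 and 7.44 CPM. Of 7 tested Gbp and immunity-related GTPase genes other than the members, 5 rose and 0 fell in GSC1, with a median of 3.47, and Gbp3 averaged 48.1 CPM in GSC1 and 3.66 CPM at P7. Of 12 tested genes of MHC class I and antigen processing, 7 rose and 0 fell in GSC1, among them Psmb10, a subunit of the immunoproteasome (167 CPM in GSC1 and 68.7 CPM at P7), and Tapbp (88.9 and 26.2 CPM). In the GSC-like lines against m14, 2 of the 33 other interferon-stimulated genes rose and 3 fell, and 4 of the 7 GTPase genes rose and 0 fell, among them Gbp3 (22.7 CPM in the lines and 4.03 CPM at m14). Of all genes, 4.05% rose and 9.2% fell there, so the share of the 33 that fell was near that of all genes.

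Along the courses the same lists gave other counts. In spermatogonia against prospermatogonia in vivo, 3 of the 33 other interferon-stimulated genes rose and 12 fell, where 11.2% of all genes rose and 21.5% fell, with a median of -0.63 beside -0.12 over all genes, and Ifi27 averaged 25.6 CPM in spermatogonia and 128 CPM in prospermatogonia. In spermatogonia-like against prospermatogonia-like cells, 4 of the 33 rose and 0 fell, where 13% of all genes rose, so that their share was near that of all genes, with a median of 0.13 beside 0.11 over all genes. In the same step 6 of the 12 MHC class I and antigen processing genes rose and 0 fell, among them B2m (121 CPM in spermatogonia-like and 61.8 CPM in prospermatogonia-like cells). There 14 of 14 macrophage and 7 of 10 stromal markers were also called higher. The part of other cells in the changes of that step was not tested. Of 14 tested nucleic acid sensors and adaptors, 5 rose and 2 fell in that step, where 5.27% of all genes fell, with a median of 0.88. In vivo 1 of the 14 rose and 3 fell, a share of falls near that of all genes. Ddx58 was among those that fell in both. The RNA sensor Ddx58 averaged 7.78 CPM in spermatogonia-like and 56.7 CPM in prospermatogonia-like cells (-3.42, adjusted p = 1.53e-17), and 7.28 CPM in spermatogonia and 33.6 CPM in prospermatogonia in vivo (-3.15, adjusted p = 1.78e-21).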

How the data were processed

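Each library's deposited file gave, per gene, a read count and RPM (reads scaled to the library total) made by the authors; the counts were used. Per the submitters' processing notes, the tools were TopHat2 2.0.11 with Bowtie2 2.2.7, cutadapt 1.9.1 and HTSeq 0.9.1, on GRCm38.p6; the sources used here do not state strand use in counting. Spike-ins, mitochondrial genes and transgene sequences were left out, which leaves 35914 nuclear genes and 1404261 to 4485280 reads per library. Genes with 5 RPM in at least 2 libraries, 16008 of them, were fitted with edgeR 4.0.16 (TMM, glmQLFit, glmQLFTest, R 4.3.3) over 31 groups. Lines were tested against each other on counts summed per line, 12 columns and 11458 genes. The lines against m14 and GSC1 against P7 were tested in the fit over 31 groups, with libraries as units. Alternatives used DESeq2 1.42.0, limma 3.58.1 on log2(RPM + 0.5, 1 or 5), scaling by total reads, no filter or 20 RPM, a replicate block, time points as units, and each library left out. The code was tested on simulated data. The members and gene lists were chosen with earlier results of these data known. Named genes were the members, the 3 most alike genes by Pearson's r over groups, and, per list, up to 3 called genes at 20 CPM or more by fold change. Some genes that this rule names are not reported here. The values of Gbp7 by line were chosen after they were seen. The labels do not say whether the 2 libraries of a group are separate animals or cultures, so p-values measure the spread between libraries, which may be technical. Replicate numbers were not taken as pairs. No 2 libraries of a group agreed within sampling noise (chi-square per degree of freedom 1.51 to 15.2).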

Additional observations from a re-analysis of the deposited data

Results flagged for a closer look

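Ifitm3 in line S3 averaged 68.4 CPM, far from the other S lines, which averaged 11.9 to 20.2 CPM. Its gap to the nearest line was 0.854 of the range of the 4 S lines, above Dixon's 95% critical value for 4 lines. Of 17 pairs of a gene and a line set examined this was the one past it, and chance passes about 1 in 20. The sums for 10 stromal markers in S3, 459 and 620 CPM, lay within those of the other S lines, 399 to 697 CPM, and those for 14 macrophage markers were 25.8 and 49.8 CPM in S3 and 13.9 to 31.1 CPM in the other S lines. Their part in the value was not tested.

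The steps to spermatogonia in culture and in vivo differed by a test of the difference itself in Ifitm1, by -3.57 on the log2 scale (adjusted p = 1.43e-06), and in Gbp2, by 2.08 (adjusted p = 0.0283), both by edgeR's quasi-likelihood test. These were 2 of 7 members, where 26.3% of all genes differed, so their share was near that of all genes. With time points as units the call of Ifitm1 is lost (adjusted p = 0.49). The Ifitm1 libraries were lower in 6 of 6 spermatogonia-like libraries than in any prospermatogonia-like library, whereas in vivo the stages overlapped. The Gbp2 value rests on 24 and 26 reads in culture and 31 and 51 reads in vivo, and P1 held none.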

How the results depend on the processing

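Of 196 values of a member in a comparison, 51 passed the test, and 20 of these did so under each alternative run. Over 3495 alternative values, 3307 kept the outcome, 92 lost a call, 94 gained one and 2 reversed: the difference of steps of Ifitm3, 0.68 and not called, became -1.19 and -2.12 with limma on log2(RPM + 1 and + 5). Counts of called members moved as follows. Prospermatogonia-like against PGC-like cells gave 4, but 2 with limma at + 5. With time points as units, a fit that Gbp2 did not enter, it gave 0, the difference of steps 0 and spermatogonia-like against spermatogonia 1, against 4. The difference of steps gave 2, but 1 without a filter and 4 without E14.5 and E15.5. The lines against m14 gave 2, but 4 with DESeq2. The lines against GSC1 gave 0, but 1 with DESeq2 and 2 with no minimum fold. The S against the W lines gave 0, but 1 with no minimum fold. The prefix-16 against the W lines gave 0, but 2 with DESeq2 and 3 with limma at + 0.5, + 1 and + 5. The cause of these moves was not tested.

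With each library or line left out, the counts ranged from 1 to 2 for the difference of steps, 1 to 2 for the lines against m14 (1 without m14 replicate 1), 0 to 2 for the lines against GSC1 (2 without S2, 1 without 16_W1) and 0 to 2 for the prefix-16 against the W lines (2 without 16_W1), where a group left with 1 library is assumed to vary like the others. With the replicate number as a block, the lines against GSC1 gave 2 calls on libraries in place of lines and the prefix-16 against the W lines 1 by line number. The block moved no other count by over 1.5 times, at 20 calls over the 17 steps against 19 without it. Deviations of same-numbered libraries correlated over 0.1 in 21 of 36 pairs of groups in the culture course (-0.0272 to 0.36), 0 of 45 in vivo and 3 of 66 among the lines, and the mitochondrial share was lower in replicate 1 in 8 of 9 culture groups. Whether these libraries share a batch was not tested. No comparison of stages had each pair over 0.1, and the block changed no call in the culture course. Depth limits the low members: 3 reads correspond to 0.669 to 2.14 RPM, and Irf7 reached 3.40 CPM at most.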
